A study of Caenorhabditis elegans with 2 samples.

Results

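The 6 furrow collagen genes dpy-2, dpy-3, dpy-7, dpy-8, dpy-9 and dpy-10 were taken by name, 6 of the 19973 protein-coding genes in the annotation, and examined for binding of the transcription factor ELT-3. Each gene was taken with the 2 kb upstream of its annotated start, and a peak was counted at a gene when its summit lay in that window. ELT-3 binding had been mapped by ChIP-seq, in which DNA bound by a protein is recovered with an antibody and sequenced, in 1 group of 2 biological replicates. The material was whole first-stage (L1) larvae of Caenorhabditis elegans strain OP75, sexes pooled and age given as unknown. Strain OP75 carries unc-119(ed3) on chromosome III and wgIs75, a stably expressed transgene encoding ELT-3 with a GFP-FLAG tag at its C terminus. Both replicates share this genotype, and no untagged strain, later stage or elt-3 mutant was analysed here, so nothing was compared between conditions. The labels name elt-3 as the antibody target and do not say whether the antibody recognises ELT-3 or its tag. The promoter of the transgene is not given in the sources used here. Because whole larvae were used, binding in few cells and weak binding in many cells cannot be told apart, and peak lists hold no marker expression with which to check the tissue.

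The cuticle of C. elegans is a collagen-rich exoskeleton secreted by the epidermis and replaced at every moult. The furrow collagens form the circumferential furrows between its annuli, each is needed for the others to assemble there, and loss of any of them gives a short, dumpy body. Loss of furrows also switches on osmotic, detoxification and antimicrobial genes in the epidermis. ELT-3 is a GATA-type zinc finger factor of the epidermis, and factors of this type bind DNA around the core GATA.

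The genes encode proteins of 302 to 452 residues with 50 to 54 Gly-X-Y triplets each, the repeat of the collagen helix. These triplets made up 33.2% of the residues of DPY-8 and 51.7% of those of DPY-3. Coordinates are in ce11, equal to WBcel235, and roles of single genes are background knowledge. On chromosome II, dpy-10 (WBGene00001072, chrII:6710149-6712227, minus strand), whose edited alleles are a visible marker in genome editing, and dpy-2 (WBGene00001064, chrII:6714292-6715971, plus strand) are divergently transcribed with 2064 bp between them. Their upstream windows therefore overlap, and peaks in the shared stretch count for both genes. On chromosome IV lies dpy-9 (WBGene00001071, chrIV:257403-259204, minus strand). The other 3 genes are on chromosome X, all on the minus strand. They are dpy-3 (WBGene00001065, chrX:2144605-2145647), dpy-8 (WBGene00001070, chrX:5148804-5150476) and dpy-7 (WBGene00001069, chrX:7536467-7537792). The dpy-7 promoter is widely used to drive transgenes in the epidermis, and DPY-7 protein is a standard marker of the furrows.

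Sequences under the summits are shown for the sites at which the findings turn, 50 bp to either side of the summit on the plus strand of WBcel235. Capitals mark a GATA motif, which was searched as AGATAA with its variant AGATAG and as TGATAA with its variant TGATAG. Both strands were read, so that TGATAA appears as TTATCA on the opposite strand. The first is the pooled-list site between dpy-2 and dpy-10 (chrII:6712627-6712727), with 2 motifs. The next is the pooled-list site before dpy-9 (chrIV:259318-259418), with 1 motif. The replicate 1 site before dpy-7 (chrX:7538195-7538295) has 1 motif. The pooled-list site in dpy-8 (chrX:5149835-5149935) and the replicate 1 site before dpy-8 (chrX:5150479-5150579) have none.
dpy-2 and dpy-10: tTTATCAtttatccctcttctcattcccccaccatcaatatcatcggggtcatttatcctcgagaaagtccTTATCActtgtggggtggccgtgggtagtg
dpy-9: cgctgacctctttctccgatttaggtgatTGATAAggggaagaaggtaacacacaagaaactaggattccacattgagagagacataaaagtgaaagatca
dpy-7: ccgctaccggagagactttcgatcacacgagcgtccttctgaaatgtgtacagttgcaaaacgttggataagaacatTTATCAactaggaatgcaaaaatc
dpy-8, pooled list: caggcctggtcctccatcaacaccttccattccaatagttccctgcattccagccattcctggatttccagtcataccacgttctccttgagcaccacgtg
dpy-8, replicate 1: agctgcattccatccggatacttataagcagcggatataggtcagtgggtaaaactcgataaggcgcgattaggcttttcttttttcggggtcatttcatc

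The authors' lists held 25325 peaks for replicate 1 and 26500 for replicate 2. A list from the pooled replicates held 5659 peaks. These 3 lists hold background as well as peaks, so an entry in them is a listed site and not a call of binding. The thresholded set, derived from them by irreproducible discovery rate, a threshold on agreement between ranked lists, held 1262. The thresholded peaks were the 1262 strongest of the pooled list by signal, the authors' measure of each peak's strength, whose unit the sources used here leave unstated. Signal ran from 42.9 to 271.5 in the thresholded set and from 24.5 to 271.5 in the pooled list. Each list also gives a −log10 q-value, which ran from 1.29 upwards in the thresholded set and from 0.0176 upwards in the pooled list. Signal was compared within a list only, and a peak's rank, 1 being the strongest, was used beside it. Read depth is unknown for these lists, so no counting interval can be given.

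None of the 6 furrow collagens had a peak of the thresholded set in its gene or 2 kb upstream, against 1208 of all 19973 protein-coding genes (6.05%). With a background this low, 0 of 6 is not a result particular to the furrow group. In the pooled list 4 of 6 genes had a peak, dpy-2, dpy-8, dpy-9 and dpy-10, against 23.1% of all genes. The 4 genes rested on 3 distinct peaks, since dpy-2 and dpy-10 share theirs, and their −log10 q-values of 0.280, 0.0672 and 0.0192 were all below the lowest of the thresholded set, 1.29. In the replicate 1 list all 6 had a peak, with 10 distinct peaks, against 69.0% of all genes. In the replicate 2 list the genes with a peak were again dpy-2, dpy-8, dpy-9 and dpy-10, with 7 distinct peaks, against 70.1% of all genes. The replicate lists thus held a peak at most genes of any kind.

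With only the 2 kb upstream counted, 0 of 6 genes had a thresholded peak (4.46% of all genes). Pooled-list peaks lay upstream of dpy-2, dpy-9 and dpy-10, 3 of 6 genes (14.2% of all genes). Replicate 1 placed a peak upstream of 5 of 6 genes, all but dpy-3 (43.6% of all genes). Replicate 2 did so for 2 of 6 genes, dpy-2 and dpy-10, through their shared site (45.9% of all genes). The pooled-list count also moved with the replicate: the strongest 5659 peaks of replicate 1 alone gave 5 of 6 genes, and those of replicate 2 alone gave 1, dpy-9.

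**Figure D1:**
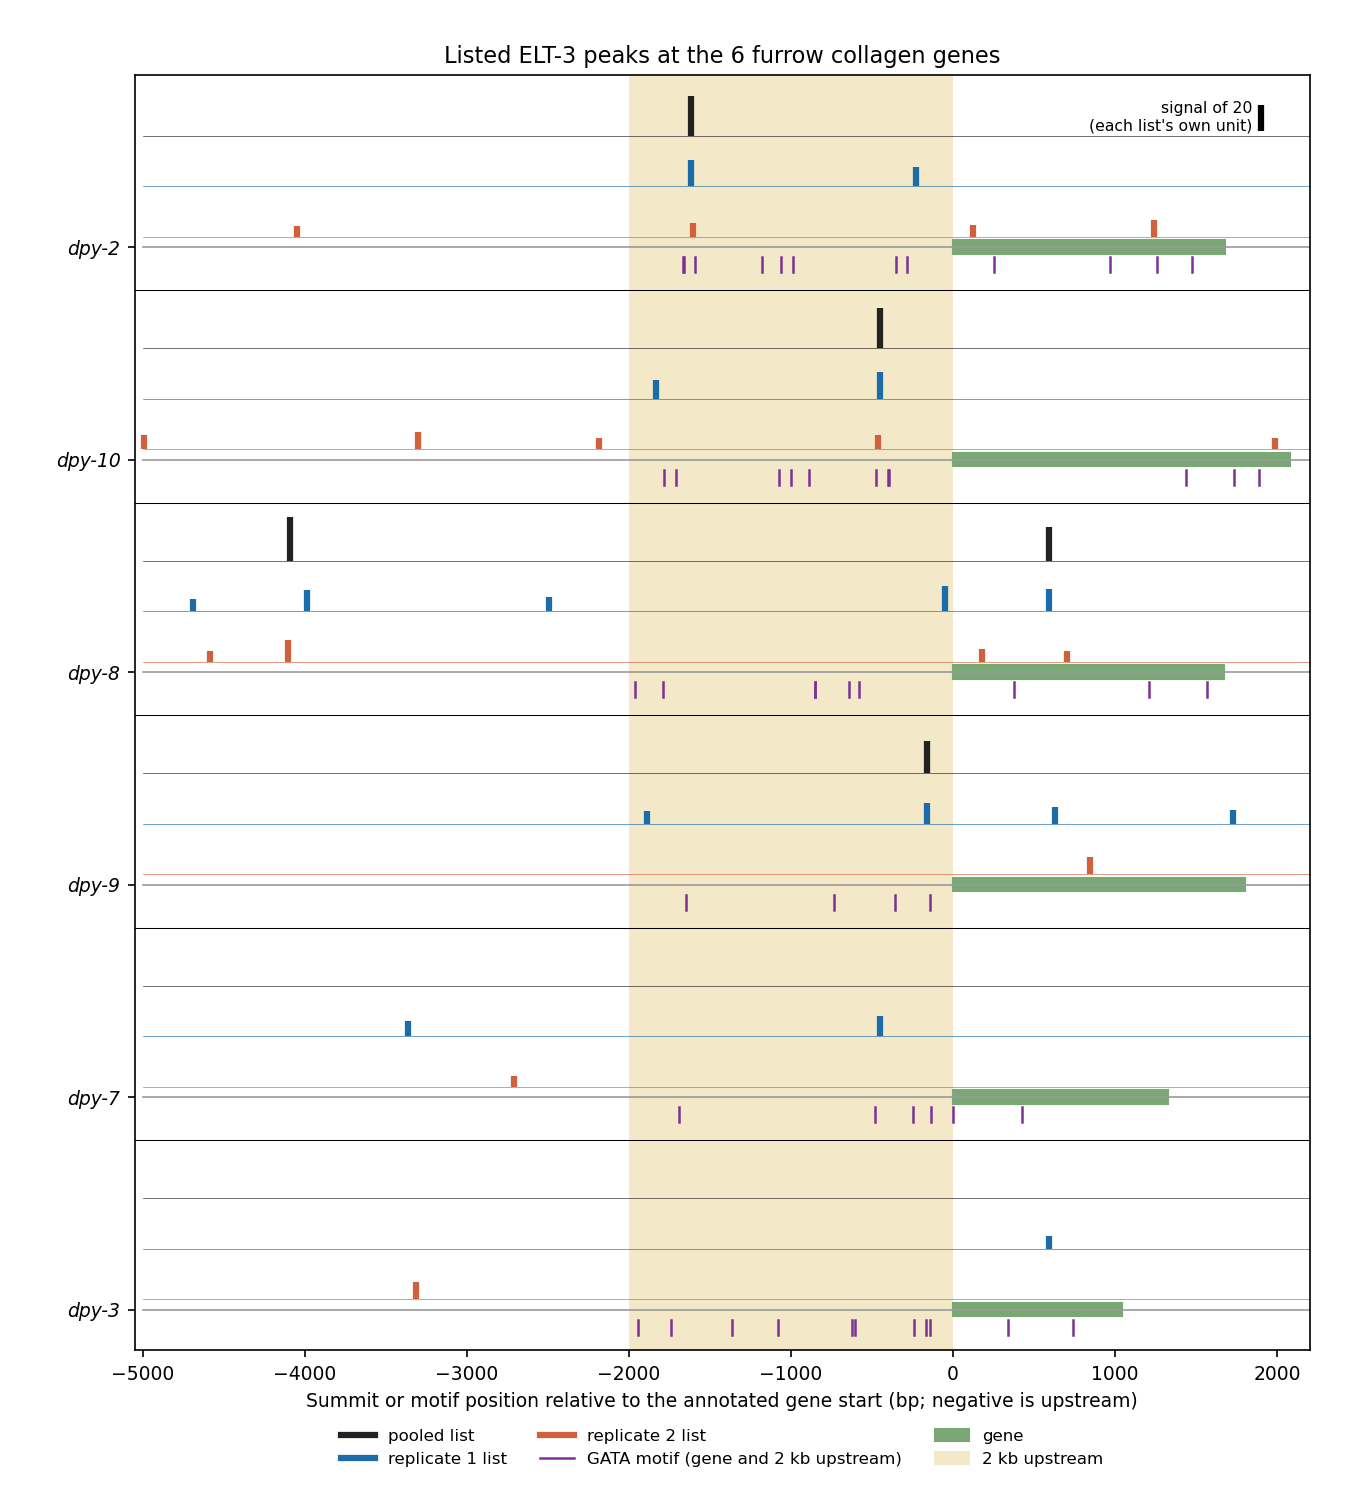
Summits listed at each furrow collagen gene, by position relative to the annotated gene start in bp (negative is upstream), in separate lanes for the pooled, replicate 1 and replicate 2 lists. Bar height is the peak's signal in the list's own unit, purple ticks are GATA motifs in the gene and its 2 kb upstream, and the thresholded set had no summit in any of the shaded upstream stretches or genes. All 6 genes have a replicate 1 bar in the gene or the shaded stretch, while dpy-3 and dpy-7 have none from replicate 2 there.

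The strongest pooled-list peak of the group lay between dpy-2 and dpy-10 and was listed in both replicates. In the pooled list it spanned chrII:6712549-6712804 with its summit 1615 bp upstream of dpy-2 and 450 bp upstream of dpy-10. Its signal was 30.7 and its −log10 q-value 0.280, which ranked it 2652 of 5659. In replicate 1 the summit was at the same base, with a signal of 20.6 and rank 1943 of 25325, the top 7.67% of the list. In replicate 2 the summit lay 12 bp away, with a signal of 10.7 and rank 12060 of 26500, or 45.5% down the list. The site was thus listed at nearly the same base in both replicates, high in replicate 1 and mid-list in replicate 2.

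The TGATAA motifs printed above for this site were centred at -46.5 and 23.5 bp from the pooled summit, and the nearer lay 11.5 bp from the replicate 2 summit. The annotation also places the summit in an intron of T14B4.19, a protein-coding gene on the minus strand (chrII:6711011-6712931) that overlaps dpy-10. The start of T14B4.19 lies 704 bp upstream of that of dpy-10 and is the annotated start nearest to the summit, which lies 254 bp inside that gene. The summit also falls in the non-coding RNA gene T14B4.14. To which of these genes the site belongs cannot be told from peak positions.

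Further peaks at this gene pair were each listed in 1 replicate. Replicate 1 had a summit 230 bp upstream of dpy-2 with a signal of 14.8 and rank 6094, over the non-coding RNA gene T14B4.13 and with no motif within 50 bp. Replicate 2 had none there. Its strongest peak at dpy-2 lay in a coding exon 1241 bp past the start, with a signal of 13.2, rank 5767 and a TGATAA motif 20.5 bp from the summit. Replicate 2 also listed weak peaks in an intron of dpy-2 (signal 8.98, rank 20924) and in the 3' UTR of dpy-10 (signal 8.57, rank 23595). The promoter-side peak of dpy-2 and the exonic one therefore came from different libraries.

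At dpy-9 the pooled list held a peak close to the start, and it was among the weakest of that list. It spanned chrIV:259240-259495 with the summit 164 bp upstream of the start, a signal of 24.6, a −log10 q-value of 0.0192 and rank 5552 of 5659. Replicate 1 had its summit at the same base with a signal of 16.2 and rank 4293 of 25325. Replicate 2 listed no peak overlapping it. The TGATAA motif shown for this site was centred at -18.5 bp from the summit.

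Replicate 2 instead listed a peak in a coding exon of dpy-9, 842 bp past the start, with a signal of 13.6 and rank 5155 of 26500, the top 19.5%. Replicate 1 had a weaker exonic summit 629 bp past the start (signal 13.1, rank 9518), and these peaks overlapped by 47 bp with summits 213 bp apart. Replicate 1 also listed a summit in the 3' UTR (signal 10.8, rank 18233), to which R02D3.8 has the nearest start. Its weakest peak, at -1887 bp from the start, lay in an intron of pqbp-1.1 and ranked 22078. Both libraries thus listed the exons of dpy-9, and only replicate 1 listed the stretch before its start.

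At dpy-8 the pooled-list peak lay inside the gene. It spanned chrX:5149757-5150012 with the summit in a coding exon 591 bp past the start, a signal of 26.2, a −log10 q-value of 0.0672 and rank 4480 of 5659. Replicate 1 listed nearly the same summit, 589 bp past the start, with a signal of 17.5 and rank 3277. Replicate 2 listed a summit 706 bp past the start with a signal of 8.42 and rank 24687 of 26500, 117 bp from the replicate 1 summit. It listed another 177 bp past the start with a signal of 10.3 and rank 14001. The replicate 2 peaks at dpy-8 thus lay in the lower part of their list.

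Replicate 1 ranked another dpy-8 peak higher, with its summit 53 bp upstream of the start, a signal of 19.7 and rank 2242 of 25325, the top 8.85%. It was the summit nearest to a start among the furrow genes in that list. Neither the pooled list nor replicate 2 had a summit within 130 bp of it, although the edge of a replicate 2 peak overlapped it by 30 bp. None of the dpy-8 peaks in any list had 1 of the 4 searched GATA words within 50 bp of the summit. The sequences above show this for the pooled-list site and the upstream one. The bare core GATA was not counted as a motif, and it does occur in the upstream sequence, as in cgataa.

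At dpy-7 only replicate 1 listed a peak, chrX:7538115-7538374, with the summit 453 bp upstream of the start, a signal of 15.4, a −log10 q-value of 0.199 and rank 5200 of 25325, the top 20.5%. The summit lies in an intron of glb-16, a globin gene on the same strand that ends 16 bp before dpy-7, and its TGATAA motif was centred 29.5 bp from the summit. The closest upstream summit of replicate 2 was at -2711 bp from the start, outside the window, with a signal of 8.66 and rank 22998. At dpy-3 only replicate 1 listed a peak, in a coding exon 593 bp past the start, with a signal of 9.94 and rank 22777 of 25325, so it stood 89.9% of the way down its list. Replicate 2 had a summit at -3313 bp from dpy-3, outside the window and in an intron of the Pax-like gene npax-2, with a signal of 13.7 and rank 5072. Neither gene had a pooled-list peak in its window.

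Set against all 19973 genes, the strongest pooled-list peak at dpy-2 and dpy-10 was exceeded by the strongest peak of 2315 genes (11.6%), that at dpy-8 by 3743 genes (18.7%) and that at dpy-9 by 4540 genes (22.7%). In replicate 1 the peak of dpy-2 and dpy-10 was exceeded at 1750 genes, that of dpy-8 at 1997, that of dpy-9 at 3634, that of dpy-7 at 4318 and that of dpy-3 at 13041. In replicate 2 the peak of dpy-9 was exceeded at 4359 genes, that of dpy-2 at 4829, that of dpy-10 at 8650 and that of dpy-8 at 9570. The orders differed between replicates: dpy-8 followed dpy-2 and dpy-10 in replicate 1 and came last of the listed genes in replicate 2. The median rank of the best peak over all genes with one was 2643 in the pooled list, 8989 in replicate 1 and 9096 in replicate 2. Only 2 libraries were made, so which neighbours in these orders differ beyond replicate spread cannot be tested.

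**Figure D2:**
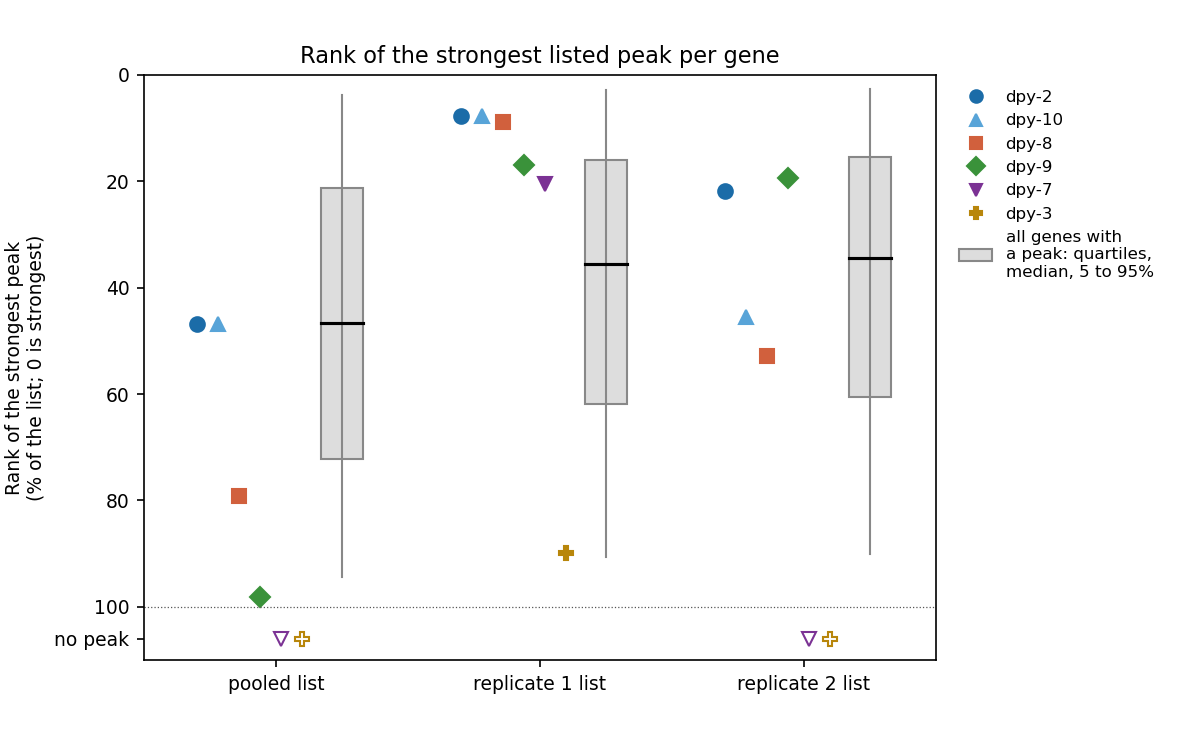
Rank of the strongest peak at each furrow collagen gene as a percentage of its list (0 is strongest), in the pooled, replicate 1 and replicate 2 lists, beside all genes that have a peak. Boxes span the quartiles of all such genes with the median as a line, whiskers run from the 5th to the 95th percentile, open symbols are genes with no peak, and replicate 1 placed dpy-2, dpy-10 and dpy-8 in the top 8.85% of its list, and replicate 2 ranked its best furrow gene at 19.5%.

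Between replicates, 4 of the 10 replicate 1 peaks at furrow genes overlapped a replicate 2 peak by at least 1 base, and 4 of the 7 replicate 2 peaks overlapped a replicate 1 peak. Over the whole lists the shares were 34.6% and 33.1%. Of the 3 pooled-list peaks, 3 overlapped a replicate 1 peak (92.2% of all pooled peaks) and 2 a replicate 2 peak (89.5%). The summit distances of the 4 overlapping pairs were 12 bp at dpy-2 and dpy-10, 117 and 230 bp at dpy-8 and 213 bp at dpy-9. The first pair was thus the closest, and the summits of the first 2 pairs lay within 130 bp of each other.

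GATA motifs lay within 50 bp of the summit at 2 of 3 pooled-list peaks of furrow genes, the dpy-2 and dpy-10 site and the dpy-9 site. Over all pooled-list peaks the share was 33.6%, and in windows of the same length 500 bp to the left and right of the summits it was 22.0% and 20.5%. In replicate 1 the count was 3 of 10 furrow peaks, against 23.3% of all peaks, and in replicate 2 it was 2 of 7, against 24.1%. In the thresholded set, which has no furrow peak, 50.2% of peaks had a motif. All the motifs found at furrow summits were TGATAA. A motif match describes the letters only.

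The 2 kb upstream of the furrow genes held 4 to 9 GATA motifs. Their median was 7, with the stretch shared by dpy-2 and dpy-10 counted for both genes. Over all genes the median was 5 and the range 0 to 29, and over 169 other cuticle collagens the median was 6. The count was 9 at dpy-3, 8 at dpy-2 and dpy-10, which share the same stretch and motifs, 6 at dpy-8, and 4 each at dpy-7 and dpy-9. TGATAA made up 6 of those between dpy-2 and dpy-10, 4 at dpy-3, and 2 each at dpy-7, dpy-8 and dpy-9. Of all genes, 10.4% had 9 or more and 69.8% had 4 or more. The gene with the most motifs, dpy-3, had the lowest-ranked best peak of the 6 in replicate 1 and no peak in the window in the other lists. In the 250 bp before the start, 3 of 6 furrow genes had a motif, dpy-3 with 3 and dpy-7 and dpy-9 with 1 each, against 49.1% of all genes. TGATAA itself occurred there at 2 of 6, against 26.8% of all genes.

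The stretch before dpy-3 is printed because it held the most motifs of the group and no listed summit, and that before dpy-7 because its motif lies in no listed peak. Both are on the minus strand, 5′ to 3′, as chrX:2145648-2145897 for dpy-3 and chrX:7537914-7537939 for dpy-7. The dpy-7 stretch lies inside the upstream gene glb-16, and all 26 of its bases are annotated as UTR. Capitals mark AGATAA and TGATAA on either strand.
dpy-3: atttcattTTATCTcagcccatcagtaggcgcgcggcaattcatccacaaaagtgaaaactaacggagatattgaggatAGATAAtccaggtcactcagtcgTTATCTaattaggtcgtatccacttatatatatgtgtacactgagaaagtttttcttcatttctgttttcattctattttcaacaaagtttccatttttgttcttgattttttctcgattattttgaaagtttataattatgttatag
dpy-7: ttcaattcatTTATCAcaccctgttc

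**Figure D3:**
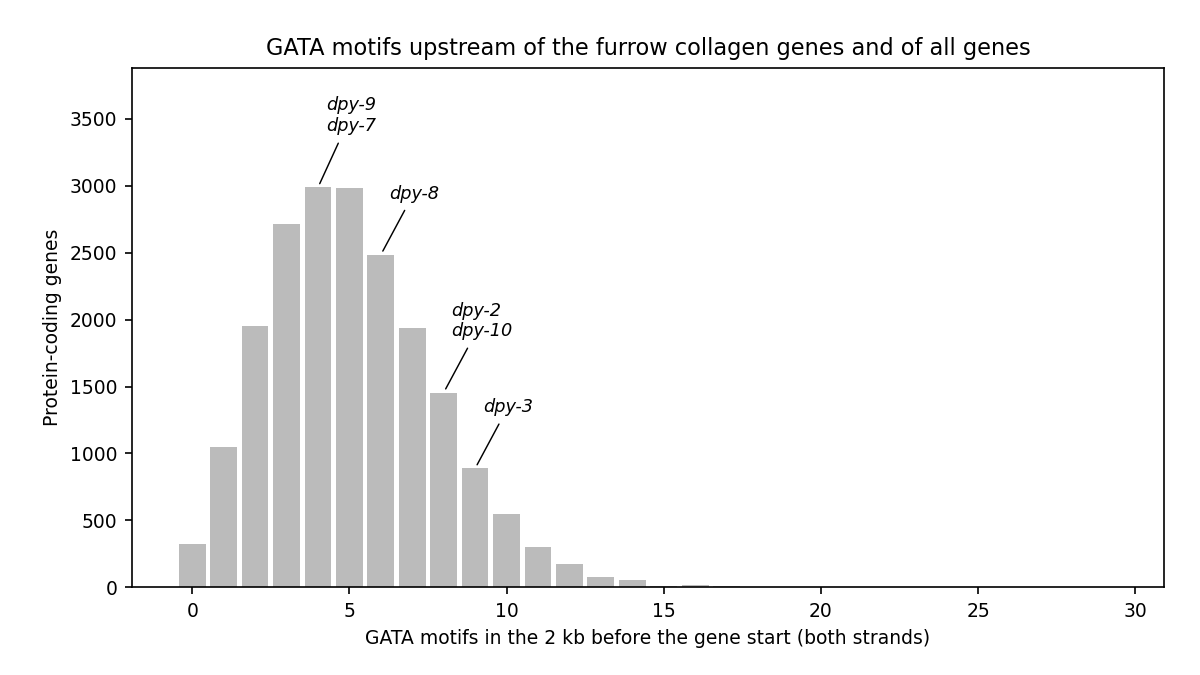
Number of protein-coding genes (vertical axis) by the number of GATA motifs in the 2 kb upstream (horizontal axis), with labels on the bars that hold the furrow collagens. The furrow genes lie between 4 and 9 motifs, inside the bulk of the distribution, whose median is 5.

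The 4 furrow genes of the pooled list had ranks from 2652 to 5552. Of the 169 other cuticle collagens, which form the rest of the cuticle, 38 (22.5%) had a pooled-list peak, close to the 23.1% of all genes, and 12 (7.10%) had a thresholded one, against 6.05%. The strongest were at col-62 (signal 74.9, rank 281), col-10 (60.7, rank 505), col-147 (56.2, rank 639) and col-94 (53.9, rank 712), all in the thresholded set. The start nearest to the col-62 peak is that of C15A11.7. Collagens nearest to a furrow gene in their ranks over the 2 libraries, among 87 with a peak in both, were col-103 for dpy-2, col-158 for dpy-8, col-122 for dpy-9 and col-174 for dpy-10. This likeness is a description over 2 libraries.

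Genes for processing and secreting collagen had 11 of 18 members (61.1%) in the pooled list and 4 in the thresholded set, against 23.1% and 6.05% of all genes. The strongest lay at pdi-3 (signal 86.0, rank 164), mlt-7 (72.8, rank 315), tmem-39 (53.3, rank 736) and pdi-2 (49.7, rank 888). The pdi genes encode disulfide isomerases, mlt-7 a peroxidase of cuticle assembly and tmem-39 a factor of collagen secretion. The nearest start was that of ubql-1 for the pdi-3 peak and rpl-24.1 for the tmem-39 peak. The windows of the furrow genes had a median length of 3676.5 bp, those of the processing genes 6890.5 bp and those of all genes 4027 bp. The part of these differences in the counts was not tested.

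The list for the response that follows furrow loss holds regulators such as elt-3 as well as other genes of the response. In the pooled list 13 of its 23 members (56.5%) had a peak, against 23.1% of all genes. In the thresholded set 7 (30.4%) had one, against 6.05% of all genes. The median window of the 23 genes was 4655 bp, against 4027 bp over all genes. The strongest was at elt-3 itself (signal 271.5, rank 1), the gene whose tagged form the transgene encodes. That peak spanned only chrX:13937491-13937577, where the median width in the pooled list was 256 bp. Any part of the transgene in its signal was not tested. A single peak of signal 122.9 and rank 52 lay in the windows of the antimicrobial peptide genes nlp-30, nlp-31 and nlp-34. In the thresholded set the furrow genes thus stood at 0 of 6 and this list at 7 of 23, beside 6.05% of all genes. The 7 were elt-3, osm-11, wdr-23 and nipi-3, and nlp-30, nlp-31 and nlp-34 through their single shared peak. The 10 members without a pooled-list peak were hmit-1.1, osm-8, ptr-23, gst-4, gcs-1, nlp-27, nlp-28, nlp-29, cnc-2 and snf-12. The counts thus describe the list and not the genes switched on by furrow loss alone. The list was chosen with earlier results of these data known, and the difference was not tested.

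**Figure D4:**
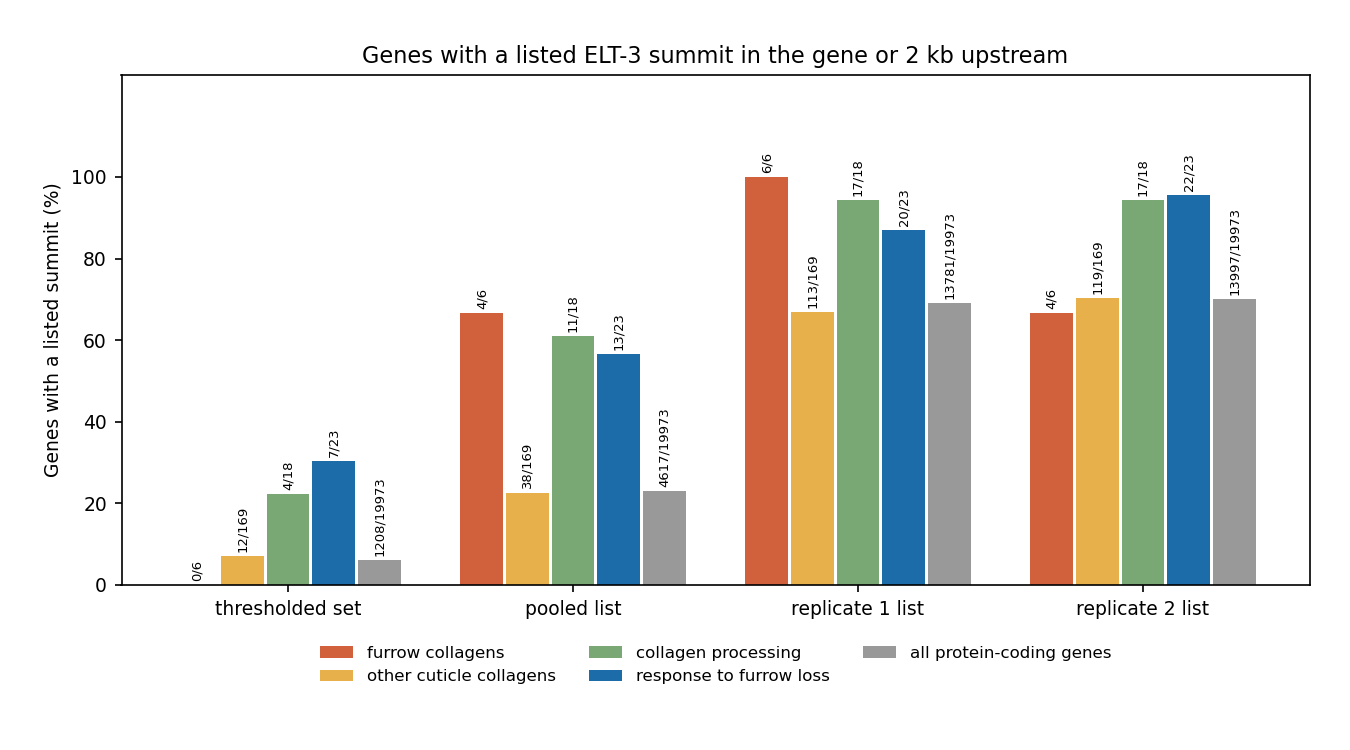
Share of genes with a summit in the gene or 2 kb upstream, in percent, for the furrow collagens, the other gene lists and all protein-coding genes, in each peak list, with the counts above the bars. The furrow collagens stand at 0% in the thresholded set and 66.7% in the pooled list, where all genes stand at 6.05% and 23.1%.

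The nearest thresholded peaks lay at other genes. Their summits were 17039 bp from the start of dpy-7 (nearest start F46C8.8), 31055 bp from dpy-8 (apl-1), 32513 bp from dpy-3 (F48B9.8) and 39731 bp from dpy-9 (pnp-1). For dpy-10 and dpy-2 the nearest was the same summit, near epg-5, 101725 and 103790 bp away. The median over all genes was 36145 bp, and 17.6% of genes were as far away as dpy-2 or farther. The distances of the furrow genes thus lay on both sides of the genome's median.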

How the data were processed

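The authors deposited 4 kinds of ce11 peak list, with a signal and a −log10 q-value for each peak. Per the accompanying file lists, peaks and background were called on each replicate and on both pooled, and the thresholded set was derived from these by irreproducible discovery rate. The aligner and peak caller were not given in the sources used here, read depth is unknown, and the ce10 lists were not used. Coordinates were written 1-based and joined to Ensembl release 115 (WBcel235), where the first coding base began an ATG in 31786 of 31853 transcripts. Summits were assigned to genes in Python 3.11.15 with numpy 2.4.6, pandas 2.3.3 and scipy 1.17.1, and figures drawn with matplotlib 3.10.9. The summit and motif searches were tested on simulated data. With 1 group of 2 replicates no test was made; counts stand beside those of all genes. Overlapping motifs were counted separately. All 6 furrow genes were named, with the gene whose start was nearest to each peak, the 4 strongest of each other list and the collagens most alike in rank. The members and lists were chosen with earlier results of these data known. Of 170 names of other cuticle collagens, ram-4 was not matched. Alternatives were other windows, the nearest start only, the stronger 50% of a list, other motif distances and each replicate alone.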

Additional observations from a re-analysis of the deposited data

How the results depend on the processing

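The thresholded count stayed at 0 of 6 under every alternative run, but most of these could give nothing else. Narrower windows, the nearest start only and the stronger 50% cannot raise a count of 0. The nearest thresholded summit lay 17039 bp from a furrow gene start, beyond the 5 kb window. Only the alternatives with a replicate left out could have changed the count. The pooled-list count of 4 stood beside 23.1% of all genes. It became 2 with the nearest start only (dpy-8 and dpy-9, 16.6% of all genes), since T14B4.19 is nearest to the shared peak. With the stronger 50% of the list it became 2 (dpy-2 and dpy-10, 12.3% of all genes), which left out ranks 4480 and 5552. It was 1 without replicate 1 (23.8% of all genes) and 5 without replicate 2 (23.4%). The replicate 2 count of 4 (70.1% of all genes) became 2 with the upstream stretch only (45.9%). Other cuticle collagens went from 38 of 169 to 64 with 5 kb upstream (32.9% of all genes) and to 20 with the stronger 50% (12.3%). The share of all genes moved the same way, from 23.1%. Motif-bearing pooled peaks numbered 1 with motifs within 25 bp (18.7% of all pooled-list peaks), against 2 within 50 bp (33.6%). The signal at dpy-8 became 33.4 with 5 kb upstream, since that window takes in the peak at -4091 bp, to which C31H2.3 has the nearest start. The cause of the differences between replicates was not tested. Another 58 values of the main counts under alternatives, those of the thresholded set included, were equal to those reported or within 1.5 times of them. For this only the counts were compared, not the shares. Motif-bearing peaks thus counted as unchanged at 2 of 7 in replicate 2 and 3 of 10 in replicate 1, beside 2 of 3 in the pooled list. Alternatives for the processing and response lists were chosen after seeing the data. With a replicate left out, the replicate lists themselves have no value. No paired analysis was possible because there was only 1 group, and 2 libraries of unknown depth limit every rank.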

Other observations

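These values were chosen after they were seen. The strongest pooled-list peak in a furrow gene or the 5 kb upstream of it was at -4091 bp from dpy-8, outside its window. It had a signal of 33.4 and rank 2115 of 5659. C31H2.3 has the nearest start, at -189 bp. Replicate 1 listed it at rank 4517 and replicate 2 at rank 2493, so that both libraries placed it in the top 17.8% of their lists. Among 14 other cuticle collagens named for body shape, such as the dpy, rol, sqt, bli and lon genes, 1 had a pooled-list peak, dpy-5 (signal 29.1, rank 3132), and 0 had a thresholded one, against 23.1% and 6.05% of all genes. The start nearest to the dpy-5 peak is that of F27C1.1. Replicate 1 ranked its best dpy-5 peak 2090 and replicate 2 listed none there.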
